A study of Homo sapiens with 12 samples.

Results

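The genes that encode the protein part of the cytosolic ribosome were followed in 4 human lung adenocarcinoma cell lines as the cells lost attachment. Members were taken by name from the deposited gene table: protein-coding genes called RPL or RPS with a number, with RPLP0, RPLP1, RPLP2 and RPSA. The rule found 87 of 60715 listed genes, 53 of the large (60S) subunit and 34 of the small (40S) subunit, on 22 chromosomes, with 12 on chromosome 19. Genes of ribosomal proteins whose names fall outside the rule, such as FAU, were kept apart. Of the 87 members, 83 passed the filter on low counts, and RPL3L, RPL10L and both Y-linked members did not.

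The established lines were NCI-H2009 and, with the driver each is known for as background, LC-2/ad with a RET fusion, NCI-H2228 with an ALK fusion and HCC4006 with an EGFR deletion. The labels name no genetic change and no drug. Each line was sequenced in 3 states: attached culture as the untreated control, and 1 day or 7 days on an ultra-low attachment plate after trypsin. A state therefore held 4 libraries, 1 per line, and the line stood in for the replicate. A line had 1 library per state, so differences between states within a line carry no test, and lines are no replicates of one genetic background. The attached libraries carry no time label, and loss of attachment cannot be told apart from trypsin treatment, replating or time in culture.

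A cytosolic ribosome holds 1 copy of nearly every ribosomal protein, with the P-stalk proteins as the known exception, and cells usually keep the output of these genes balanced. Their mRNAs are short, abundant and stable. Most begin at a cytosine followed by an unbroken row of pyrimidines, the 5' terminal oligopyrimidine (TOP) tract, through which mTOR signalling and the LARP1 protein control translation. That control acts on ribosome loading, which mRNA levels do not measure. Several members have a paralog that can take their place in the ribosome, and some of these are known for uneven expression between tissues and tumors.

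The sequences around the RefSeq start site (build GRCh38.p14) show the feature that most members share. Promoter entries matched 70 of the 87 members. Each sequence printed here runs from 45 bases before the start to 20 bases from the start onward, on the strand of the gene, and capitals mark the unbroken run of C and T that touches the 10 bases around the start, the last 5 before it and the first 5 from it. Shown first are RPS27, RPS24 and RPL28, which had the smallest p in the 3 comparisons, RPSA, which had the lowest log2 difference at day 7, and RPS15, the most abundant member. A selection of paralogs and partners follows: both genes of the RPS27, RPL22, RPL26 and RPL36A pairs, with RPL7L1 and RPL39 alone.
RPS27, chr1:153990717-153990781, plus strand: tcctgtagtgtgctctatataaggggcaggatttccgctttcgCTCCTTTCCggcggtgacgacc
RPS24, chr10:78033818-78033882, plus strand: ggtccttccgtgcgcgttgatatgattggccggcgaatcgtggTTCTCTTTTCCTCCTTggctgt
RPL28, chr19:55385887-55385951, plus strand: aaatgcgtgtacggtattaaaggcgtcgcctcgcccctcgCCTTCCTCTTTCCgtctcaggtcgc
RPSA, chr3:39406675-39406739, plus strand: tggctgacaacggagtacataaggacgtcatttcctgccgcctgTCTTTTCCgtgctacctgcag
RPS15, chr19:1438351-1438415, plus strand: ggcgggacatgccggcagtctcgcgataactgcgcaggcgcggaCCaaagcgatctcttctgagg
RPS27L, chr15:63157458-63157522, minus strand: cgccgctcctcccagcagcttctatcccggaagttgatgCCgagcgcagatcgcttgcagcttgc
RPL22, chr1:6199576-6199640, minus strand: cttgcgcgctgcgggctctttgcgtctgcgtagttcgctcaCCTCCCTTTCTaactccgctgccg
RPL22L1, chr3:170870176-170870240, minus strand: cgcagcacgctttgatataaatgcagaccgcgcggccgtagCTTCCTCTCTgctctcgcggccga
RPL26, chr17:8383174-8383238, minus strand: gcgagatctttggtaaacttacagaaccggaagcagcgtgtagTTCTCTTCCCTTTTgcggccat
RPL26L1, chr5:172958684-172958748, plus strand: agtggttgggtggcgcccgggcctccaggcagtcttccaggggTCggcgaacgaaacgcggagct
RPL36A, chrX:101390966-101391030, plus strand: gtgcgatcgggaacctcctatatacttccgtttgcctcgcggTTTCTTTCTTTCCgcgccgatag
RPL36AL, chr14:49620607-49620671, minus strand: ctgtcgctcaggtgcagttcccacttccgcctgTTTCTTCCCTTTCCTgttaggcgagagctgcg
RPL7L1, chr6:42879571-42879635, plus strand: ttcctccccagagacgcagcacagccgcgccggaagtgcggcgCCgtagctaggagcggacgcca
RPL39, chrX:119791611-119791675, minus strand: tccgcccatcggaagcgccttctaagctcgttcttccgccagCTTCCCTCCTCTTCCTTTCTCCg

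The run of C and T was 7 bases or longer in 50 of the 70 matched members (71.4%) against 15.4% of all 35116 promoters in the table. Its median length was 10 bases in the members and 4 in all promoters. In the sequences above it was 22 bases in RPL39, 16 in RPS24 and 9 in RPS27. It was 2 bases in RPS15, the member with the highest mean level, and also 2 in the paralogs RPL7L1, RPL26L1 and RPS27L. RPL22L1 and RPL36AL, in contrast, had runs of 10 and 15 bases. Motifs that can overlap each other were searched in the 20 bases centred on the start. On the gene's strand CTTTC was found in 35.7% of matched members and 3.10% of all promoters. The motif TCTTT was found in 21.4% of matched members and in 2.76% of all promoters. For CTTTT the shares were 18.6% and 2.62%. At least 1 of the 3 was present in 36 members (51.4%) and in 6.52% of all promoters, and on the opposite strand in 1.43% and 4.16%. A RefSeq start is 1 annotated position, and the libraries did not measure start sites.

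**Figure D1:**
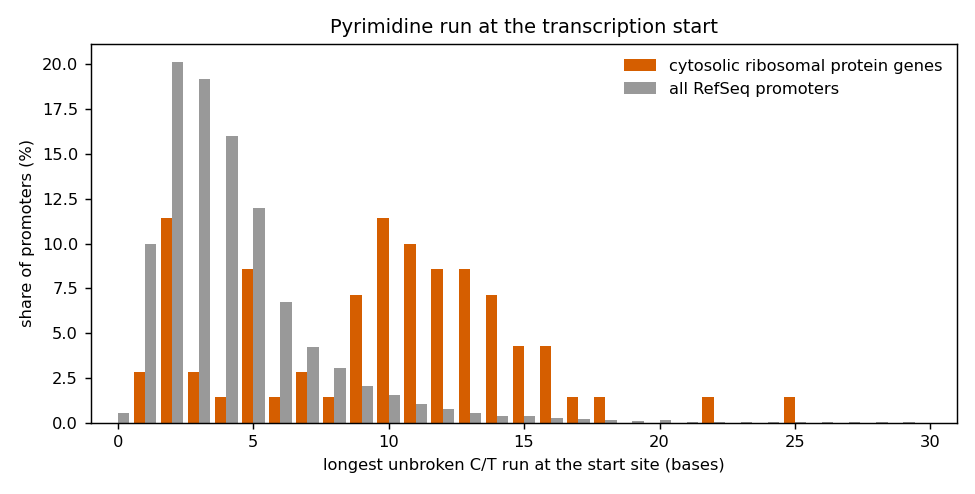
Length of the unbroken C and T run at the annotated start site (x axis, bases) for ribosomal protein promoters and for all promoters, with the share of promoters at each length on the y axis. The members' median is 10 bases, against 4 for all promoters.

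The members were among the most abundant transcripts of these cells. On the TPM scale, which corrects for transcript length, 80 members had a mean over the 12 libraries of at least 100 and 27 of at least 1000. The 6 highest were RPS15 at 2879, RPS18 at 2628, RPS19 at 2503, RPL41 at 2273, RPL13 at 2262 and RPS2 at 1934 TPM, and together they made up 19.9% of the members' summed TPM. RPS15 and RPS19 act in assembly and export of the small subunit, and RPL41 encodes the smallest ribosomal protein. The 6 lowest that passed the filter were all, with 1 exception, paralogs: RPL22L1 at 34.6, RPL22 at 82.4, RPS27L at 96.1, RPL39L at 106, RPL7L1 at 123 and RPL26L1 at 144 TPM, where RPL22 is the exception. The highest mean was 83.2 times the lowest, and the median member stood at 737 TPM, although the proteins they encode are, with few exceptions, present in equal number in a ribosome.

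The summed level differed between lines and, in 2 of them, between states. In attached culture the members made up 8.55% of all TPM in NCI-H2009, 10.3% in LC-2/ad, with 6.71% in NCI-H2228 and 5.98% in HCC4006. After 1 day the shares were 8.61%, 10.5%, 6.02% and 6.78% in the same order. After 7 days they were 3.77%, 6.95%, 6.52% and 6.45%. Day 7 thus stood at 0.441 times the attached share in NCI-H2009 and 0.673 times in LC-2/ad, and at 0.971 and 1.08 times in NCI-H2228 and HCC4006. The state means were 7.89% ± 1.95 attached, 7.99% ± 2.02 at day 1 and 5.92% ± 1.45 at day 7 (SD, n = 4 lines), and the ranges of the 3 states overlapped. With 4 pairs, an exact two-sided sign-flip test cannot go below p = 0.125, and none was run on this sum. In bulk RNA, less ribosomal protein mRNA in every cell and fewer cells with a high level cannot be told apart.

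**Figure D2:**
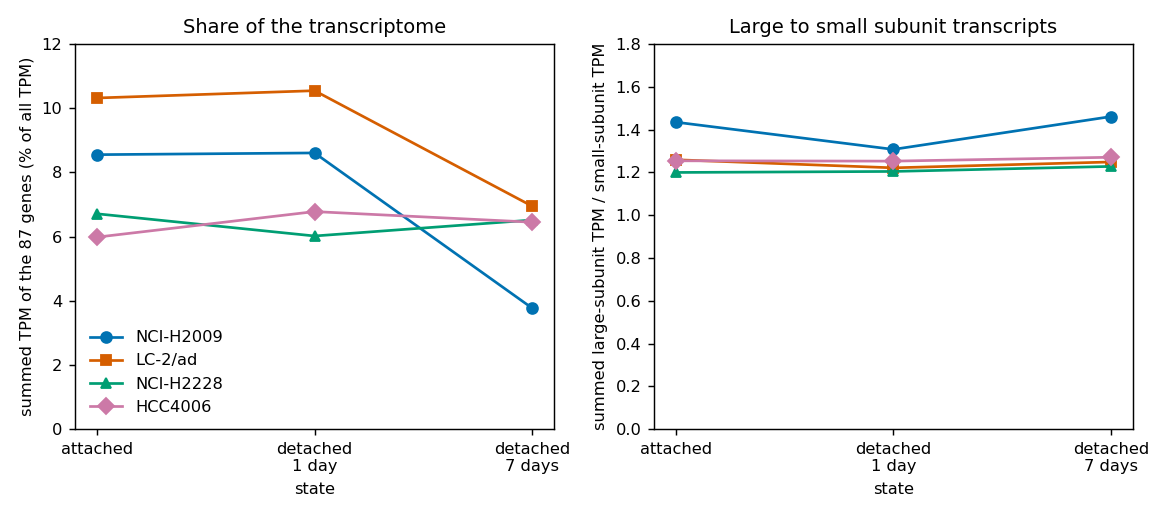
Summed share of cytosolic ribosomal protein genes in all TPM (y axis, percent) and ratio of large to small subunit TPM (right), by state on the x axis, with 1 line of points per cell line. NCI-H2009 and LC-2/ad end at 3.77% and 6.95% after starting at 8.55% and 10.3%, while NCI-H2228 and HCC4006 start and end between 5.98% and 6.71%, and the ratio stays between 1.20 and 1.46.

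Both subunits kept nearly the same proportion. The summed TPM of large-subunit members divided by that of small-subunit members was 1.29 ± 0.10 attached, 1.25 ± 0.05 at day 1 and 1.30 ± 0.11 at day 7 (SD, n = 4 lines). NCI-H2009 had the highest ratio in each state, at 1.43, 1.31 and 1.46, and the other lines stayed between 1.20 and 1.27. At day 7 in NCI-H2009 the median log2 difference from attached was -1.45 for large-subunit and -1.52 for small-subunit members, and in LC-2/ad it was -0.65 and -0.69. The sums are length-corrected, and in estimated counts the ratio was higher in each state.

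Libraries held between 31134420 and 41882024 estimated counts, with PCR copies unmarked, so depth describes counting error only. All 8 epithelial markers were expressed, with summed levels of 5402 to 18171 TPM attached, 4261 to 14431 at day 1 and 3940 to 22315 at day 7. Summed leukocyte markers stood at 3.60 to 38.4, 33.2 to 87.2 and 18.5 to 120 TPM in the same states. They were carried by CD14 and CD68, while MS4A1 and TYROBP were at 0 and PTPRC was at most 0.834 TPM. Fibroblast markers summed to 7.39 to 377, 7.03 to 184 and 5.83 to 45.3 TPM, of which COL1A1 reached 347, and endothelial markers summed to at most 13.2 TPM. Transcripts of the mitochondrial genome held 0.526% to 3.39% of TPM. In the NCI-H2009 library of day 7, which had the lowest share of ribosomal protein mRNA, they held 0.968%, against 1.03% in the attached library of that line, and 14899 genes reached 1 TPM, the highest number of the 12 libraries.

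The first comparison asks how the members differ after 1 day without attachment. No member passed the threshold. RPS27, the zinc-finger protein eS27 of the small subunit, had the smallest p, and RPL7L1, a nucleolar relative of RPL7, the second. The median log2 difference over the 83 members was 0.15, against 0.01 over all genes tested. It was above 0 for 56 members and below 0 for 27, where 49.5% of all genes were below. By line the medians were 0.32 in NCI-H2009, -0.01 in LC-2/ad, with -0.08 in NCI-H2228 and 0.24 in HCC4006. With limma on log2(TPM + 1) in place of counts, the median was 0.01. Below 0 at day 1 were 21 members in NCI-H2009 (48.3% of all genes), 43 in LC-2/ad (47.9%), 47 in NCI-H2228 (48% of all genes) and 9 in HCC4006 (49.7%).

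With edgeR's quasi-likelihood test and Benjamini-Hochberg adjustment over 17395 genes, 0 of 83 members were called at day 1, where 0.489% of all genes were. At an unadjusted p under 0.05, 1 member was lower (9.01% of all genes) and 1 was higher (10.6% of all genes). DESeq2 called 0 members as well, although it called 9.74% of all genes. limma called 0 members, but its share over all genes is not given, so that count has no background. Of the members, 24 (28.9%) were higher in all 4 lines, against 17.1% of all genes, and 3 (3.61%), RPL4, RPL7L1 and RPS15, were lower in all 4, against 16.9%. Members are not independent of each other, and these shares describe the 4 lines.

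RPS27 (ENSG00000177954.14, chromosome 1, 153990762 to 153992155) stood in attached and day 1 cells at 1628 and 2953 TPM in NCI-H2009, at 1854 and 2446 in LC-2/ad, with 1246 and 2045 in NCI-H2228 and 1189 and 1624 in HCC4006. Each line was higher at day 1, but the 2 groups of 4 overlapped. The log2 difference was 0.80 ± 0.27 (SE, n = 4 lines, edgeR adjusted p = 0.157). RPL7L1 (ENSG00000146223.16, chromosome 6, 42879616 to 42889925) stood at 128 and 58.6 TPM in NCI-H2009, 211 and 160 in LC-2/ad, with 133 and 95.6 in NCI-H2228 and 92.1 and 68.9 in HCC4006. Each line was lower at day 1, again with overlap between the groups, and the log2 difference was -0.44 ± 0.16 (SE, n = 4 lines, edgeR adjusted p = 0.168). RPL7L1 is a member by name, and its yeast relative acts in assembly of the large subunit and is not part of the finished ribosome.

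The next members by p at day 1 did not come near the threshold. RPL31, a large-subunit protein near the exit of the peptide tunnel, had a log2 difference of 0.56 ± 0.29 with each line above 0. RPL28 stood at 0.43 ± 0.25 and RPL10, a protein added late in the assembly of the large subunit, at 0.47 ± 0.29. Both were also above 0 in each line by log2 CPM. Without NCI-H2009 their log2 differences were 0.25 and 0.30, and with limma on log2(TPM + 1) they were 0.26 and 0.20. RPL39L, a paralog of RPL39 known for high expression in the testis, stood at -0.51 ± 0.29, and its value came mostly from NCI-H2228, where TPM was 179 attached and 58.3 at day 1. Without that line it was -0.22. It was the only member at least 2-fold lower in that line, where 10.3% of all genes were. RPL13A, a large-subunit protein also known from a complex that silences inflammatory mRNAs, was at 1.10 in NCI-H2009 and at -0.18 in NCI-H2228. It was, with RPS27 at 1.24, 1 of the 2 members at least 2-fold higher in NCI-H2009 at day 1, where 18.3% of all genes were.

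The second comparison asks how the members differ after 7 days. Again no member passed the threshold, but the values leaned to 1 side: 82 of 83 members had a log2 difference below 0, with RPS27 alone above, at 0.10. Of all genes tested, 47.3% were below 0. The median was -0.44, against 0.03 over all genes tested. The lines differed in size. In NCI-H2009 the median was -1.46, which is 2.75-fold lower than in attached cells, and in LC-2/ad it was -0.66, or 1.58-fold lower. In NCI-H2228 it was -0.02 and in HCC4006 0.16, while the medians of all genes tested lay between -0.00 and 0.04 in the 4 lines.

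edgeR's quasi-likelihood test called 0 of 83 members at day 7 (0.103% of all genes), with a smallest adjusted p of 0.216. At an unadjusted p under 0.05, 7 members (8.43%) were lower, against 7.19% of all genes, and 0 were higher, against 8.47%. DESeq2 called 0 members and 6.63% of all genes, and limma called 0 members, again without a share over all genes. Of the members, 10 (12.05%) were lower in all 4 lines, against 14.1% of all genes, and 0 were higher in all 4, against 14.6%. RPL11, RPL17, RPL39L, RPLP0, RPLP2, RPS10, RPS15, RPS24 and RPSA were among them. The share lower in all 4 lines was thus near that of all genes, and 2 lines held the low values. Without NCI-H2009 the median was -0.14, without its day 7 library alone it was -0.12, and without HCC4006 it was -0.65.

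Within NCI-H2009 all 83 members were lower at day 7 than attached (46.5% of all genes were), and 75 of them (90.4%) were at least 2-fold lower, where 13.6% of all genes were. RPL35 at -2.23 and RPL32 at -2.12 had the lowest log2 differences. The 8 members that were less than 2-fold lower were RPL3, RPL8, RPL22, RPL28, RPL36AL, RPL7L1, RPS27 and RPS27L, and RPL7L1 at -0.31, RPS27 at -0.62 and RPL3 at -0.73 were the closest to 0. In LC-2/ad 82 of 83 members (98.8%) were lower, against 48.6% of all genes, but only RPSA at -1.02 and RPS24 at -1.01 were at least 2-fold lower, where 7.97% of all genes were. RPS27L was the member above 0, at 0.16. In NCI-H2228 44 members (53.0%) were lower, against 47.9% of all genes, and in HCC4006 13 members (15.7%), against 50.1%. No member was 2-fold lower in either, where 10.1% and 8.74% of all genes were. These are differences between single libraries, and whether the response differs between lines was not tested.

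**Figure D3:**
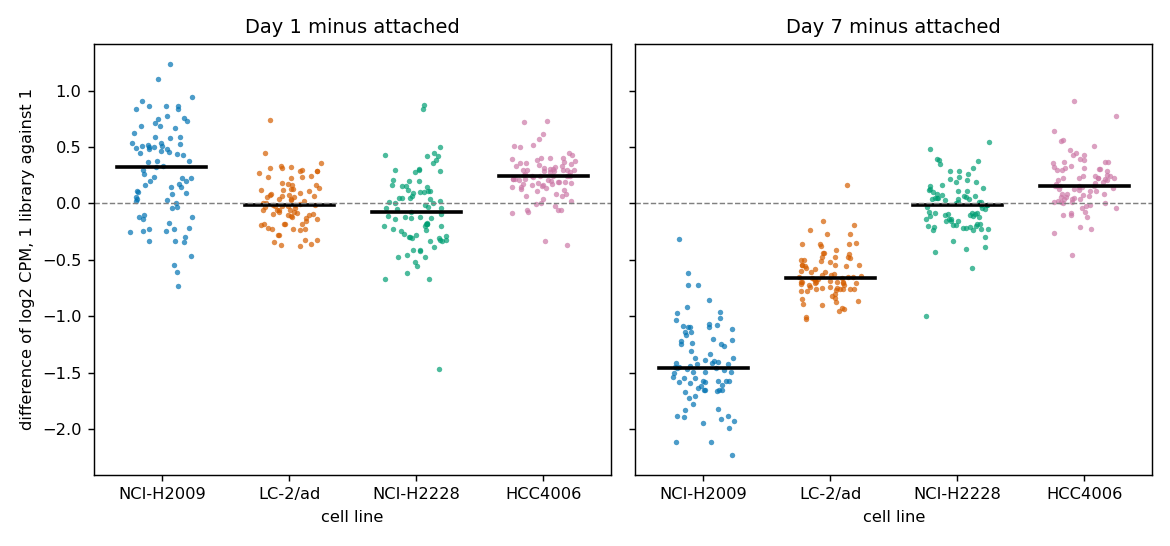
Log2 difference of each of the 83 members from attached culture (y axis) by cell line (x axis), at day 1 (left) and day 7 (right), with 1 point per gene and a bar at the median. At day 7 the NCI-H2009 points lie around a median of -1.46 and the LC-2/ad points around -0.66, and those of the other 2 lines lie around -0.02 and 0.16.

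Short transcripts as a class lay on the same side in the libraries with the lowest member values, though less far from 0. When protein-coding genes other than the members were cut into 10 equal groups by the length that counts and TPM imply, 76 of the 83 members had a length within the shortest group. The 1421 genes of that group had a median log2 difference at day 7 of -0.33 in NCI-H2009, -0.10 in LC-2/ad, with 0.00 in NCI-H2228 and 0.09 in HCC4006. At day 1 their medians were 0.35, 0.08, 0.05 and 0.19, beside 0.32, -0.01, -0.08 and 0.24 for the members. The part of transcript length in the members' values was not tested. This grouping was chosen after the data had been seen.

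The members with the smallest p at day 7 were RPS24, RPS15, RPL17, RPS26, RPL39L, RPL38 and RPSA, at an unadjusted p under 0.05 each. RPS24 (ENSG00000138326.21, chromosome 10, 78033760 to 78056813), a small-subunit protein mutated in some families with Diamond-Blackfan anemia, stood in attached and day 7 cells at 749 and 292 TPM in NCI-H2009, 953 and 497 in LC-2/ad, with 408 and 315 in NCI-H2228 and 530 and 454 in HCC4006. Each line was lower at day 7, and the groups overlapped. Its log2 difference was -0.74 ± 0.26 (SE, n = 4 lines, edgeR adjusted p = 0.216). RPS26, another small-subunit gene of that anemia, stood at -0.58 ± 0.24, with NCI-H2228 at 0.03. Without NCI-H2009 the log2 difference was -0.47 for RPS24 and -0.29 for RPS26.

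RPSA (ENSG00000168028.14, chromosome 3, 39406716 to 39412542) encodes a protein at the head of the small subunit that was first described as a laminin receptor, a function in cell adhesion. It stood at 314 and 98.9 TPM in NCI-H2009, 380 and 195 in LC-2/ad, with 154 and 111 in NCI-H2228 and 135 and 108 in HCC4006, attached and at day 7. Each line was lower, and 2 attached libraries lay below the highest library of day 7. The log2 difference of -0.80 ± 0.35 (SE, n = 4 lines, edgeR adjusted p = 0.309) was the lowest of the members, and without the NCI-H2009 library of day 7 it was -0.45. Between the attached and day 1 libraries RPSA differed by -0.01 ± 0.35, with NCI-H2009 at 0.51 and NCI-H2228 at -0.62.

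RPS15 (ENSG00000115268.10, chromosome 19, 1438358 to 1440495), which lacks a long C and T run at its annotated start, stood at 3819 and 1723 TPM in NCI-H2009, 5596 and 3776 in LC-2/ad, with 2909 and 2039 in NCI-H2228 and 1842 and 1603 in HCC4006. It was lower in each line at day 7, by a log2 difference of -0.60 ± 0.23 (SE, n = 4 lines, edgeR adjusted p = 0.247). RPL17, a protein at the exit of the peptide tunnel, stood at -0.76 ± 0.30, and RPS10 at -0.66 ± 0.31. Readthrough genes with a name of their own overlap RPL17, RPS10 and RPL36A, and reads could be split between them. RPL38, known for its part in translation of Hox mRNAs, stood at -0.58 ± 0.25 with HCC4006 above 0, at 0.16. Without NCI-H2009 the log2 differences were -0.37 for RPS15, -0.40 for RPL17, -0.32 for RPS10 and -0.28 for RPL38.

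Further members with a known role beyond the ribosome are given here for day 7, beside the group's median of -0.44. RPL5 and RPL11, which with 5S rRNA bind MDM2 when ribosome assembly is disturbed, stood at -0.58 ± 0.27 and -0.53 ± 0.26, and RPL5 at -0.30 without NCI-H2009. RPS6, the substrate of the S6 kinases, stood at -0.30 ± 0.29, with NCI-H2228 and HCC4006 above 0. The stalk proteins RPLP0, RPLP1 and RPLP2, which recruit elongation factors, stood at -0.62 ± 0.32, -0.42 ± 0.31 and -0.60 ± 0.30. RPS27A, made as a fusion with ubiquitin, stood at -0.55 ± 0.29, RPS19, the most often mutated gene of Diamond-Blackfan anemia, at -0.49 ± 0.33, RPS3, which also takes part in DNA repair, at -0.36 ± 0.27, and RPL13A at -0.30 ± 0.33. No adjusted p among these was below 0.326, that of RPL5 by edgeR's quasi-likelihood test.

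Members with a C and T run of at least 7 bases and those with a shorter run had like values at day 7. The 49 with the longer run that passed the filter had a median of -1.48 in NCI-H2009 and -0.69 in LC-2/ad. The 18 with a shorter run had -1.31 and -0.57. At day 1 the medians in NCI-H2009 were 0.43 and 0.03 in the same order, a wider gap. These medians are descriptions, and the run is read from the annotation.

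From day 1 to day 7 the median log2 difference of the members was -0.56, against 0.02 over all genes. Below 0 were 82 of 83 members, where 48.1% of all genes were, with RPL7L1 above at 0.22. edgeR's quasi-likelihood test called 0 of 83 members and 0% of all genes. At an unadjusted p under 0.05, 20 members (24.1%) were lower, against 4.93% of all genes, and 0 were higher, against 4.85%. DESeq2 called 0 members and 1.1% of all genes, and limma called 0 members, with no share over all genes given. In all 4 lines 24 members (28.9%) were lower, against 9.05% of all genes, and none was higher, against 9.61%. NCI-H2009 had a median of -1.78, or 3.43-fold lower, with 77 members at least 2-fold lower (14.8% of all genes), and LC-2/ad of -0.67, against 0.06 in NCI-H2228 and -0.08 in HCC4006. Without NCI-H2009 the median was -0.21, and without its day 7 library alone -0.23. Between the same days the 1421 other genes of the shortest length group had medians of -0.67 in NCI-H2009 and -0.18 in LC-2/ad. Both other lines had -0.05. The longest group stood at 0.34 and 0.05 in the first 2 lines. No share at an unadjusted p under 0.05 is given for short transcripts, and the part of length was not tested here either. The comparison of day 7 with day 1 shares its day 1 libraries with the first comparison and its day 7 libraries with the second.

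RPL28 had the smallest p between the days, with a log2 difference of -0.77 ± 0.25 (SE, n = 4 lines, edgeR adjusted p = 0.480). Its TPM at day 1 and day 7 was 198 and 85.2 in NCI-H2009, 377 and 207 in LC-2/ad, with 133 and 121 in NCI-H2228 and 299 and 282 in HCC4006. Each line was lower on day 7, and the groups overlapped. RPS9, a small-subunit protein needed for accurate decoding, stood at -0.74 ± 0.25 and was also lower in each line. Without NCI-H2009 the log2 differences were -0.42 for RPL28 and -0.43 for RPS9. Both had a higher TPM at day 1 than attached in 3 of 4 lines. In HCC4006 RPL28 stood at 305 TPM attached and 299 at day 1, although its log2 CPM was 0.07 higher at day 1. RPS27 went from 2953 TPM at day 1 to 1258 at day 7 in NCI-H2009 but from 1624 to 1719 in HCC4006.

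**Figure D4:**
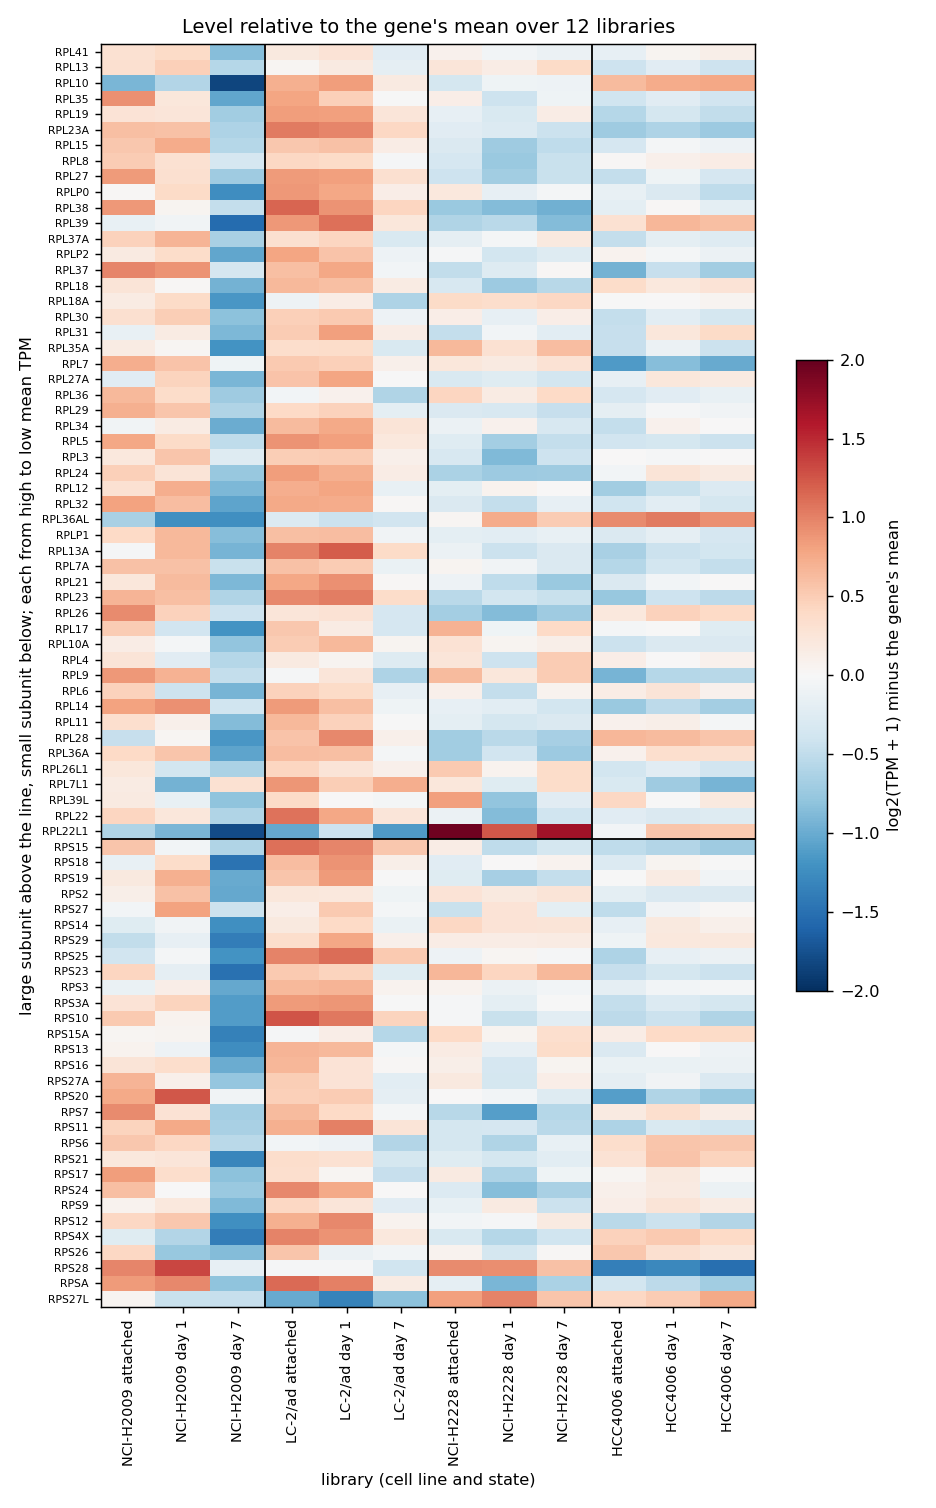
Level of the passing members reported here in each of the 12 libraries, as log2(TPM + 1) minus the member's own mean, with members as horizontal lines, large subunit above small, and libraries as columns. The colour scale is capped at its ends, and most members are lowest in the NCI-H2009 library of day 7.

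The line a library came from accounted for more of the members' variation than its state. Over the 83 members, line took 59.9% of the variance of log2(TPM + 1) around each member's mean, state 17.5% and the rest 22.5%. Line rests on 4 means and state on 3, so these shares are not on equal terms, and none is given over all genes. Members followed each other: the median Pearson r between 2 members over the 12 libraries was 0.57, across 3403 pairs, with libraries, depth and lines shared by every pair. For 40 members r with the summed share of the other members was above 0.8. Among the most alike were RPS3A at 0.97, RPLP1 at 0.96, RPL32 at 0.95 and RPLP2 at 0.94. The 3 members with an r below 0 were the paralogs RPS27L at -0.58, RPL36AL at -0.25 and RPL22L1 at -0.18.

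Certain members differed more between lines than between states. RPL22L1 (ENSG00000163584.18, chromosome 3, 170864875 to 170870208), the paralog of the RNA-binding protein RPL22, had the widest spread, with an SD of 1.25 between the line means of log2(TPM + 1), against 0.16 between the state means. It stood at 98.5, 60.4 and 82.3 TPM in the attached, day 1 and day 7 libraries of NCI-H2228. In HCC4006 it stood at 23.95, 37.1 and 36.4, in NCI-H2009 at 16.0, 12.8 and 6.48 and in LC-2/ad at 11.8, 18.4 and 10.8. The NCI-H2228 libraries were the highest 3 of the 12, and the ranges of NCI-H2009 and LC-2/ad overlapped.

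RPS28 (ENSG00000233927.5, chromosome 19, 8321158 to 8323340), a small protein at the mRNA exit of the small subunit, had the next widest spread, with an SD of 1.02 between lines and 0.33 between states. It was lowest in HCC4006, at 66.5, 70.0 and 59.7 TPM, while NCI-H2009 stood at 340, 434 and 154 and NCI-H2228 at 333, 328 and 258. LC-2/ad lay between, at 169, 169 and 131, and overlapped with NCI-H2009. RPL10 (ENSG00000147403.17, chromosome X, 154389955 to 154409168), recurrently mutated in T-cell leukemia, had SDs of 0.84 and 0.24. It stood at 796, 996 and 420 TPM in NCI-H2009 and at 2324, 2495 and 2561 in HCC4006. Its levels were 2440, 2669 and 1684 in LC-2/ad and 1177, 1402 and 1386 in NCI-H2228, so that NCI-H2009 was the lowest line in each state. No test was made of differences between lines.

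In the pair of RPL22 and RPL22L1, the share of RPL22L1 was highest in NCI-H2228 and next in HCC4006, as its level was. The order of lines differed between pairs. The share of RPL7L1 was highest in HCC4006 attached, and that of RPL39L was highest in NCI-H2009 at day 1 and day 7. RPL22L1 made up 58.3%, 59.2% and 58.8% of the pair's summed TPM in NCI-H2228, attached, at day 1 and at day 7, and 27.0%, 37.3% and 36.4% in HCC4006. In NCI-H2009 it made up 13.4%, 12.5% and 11.5%, and in LC-2/ad 6.69%, 12.3% and 10.7%. Over the lines the share was 26.4% ± 22.9 attached, 30.3% ± 22.6 at day 1 and 29.3% ± 23.0 at day 7 (SD, n = 4). In estimated counts, which are not corrected for length, the share in NCI-H2228 was 27.6%, 25.3% and 29.9%. RPL22 itself was lower at day 7 in 3 lines, with a log2 difference of -0.45 ± 0.21.

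On the TPM scale RPL36AL (ENSG00000165502.7, chromosome 14, 49618530 to 49620626) was the majority of its pair with RPL36A in all libraries but 1. In estimated counts it was the majority in each library, with 58.1% in the exception, NCI-H2009 at day 1. Its TPM share was 82.2%, 85.8% and 86.7% in NCI-H2228 and 83.5%, 81.8% and 80.8% in HCC4006. It was 57.3%, 44.5% and 71.3% in NCI-H2009 and 59.8%, 57.7% and 68.7% in LC-2/ad. In the last 2 lines the share was highest at day 7, when RPL36A stood at 92.4 and 188 TPM, against 254 and 299 attached. The coding sequences of the 2 genes are near-identical, as are those of RPL39 and RPL39L and of RPL26 and RPL26L1, and how reads were divided between such genes is not stated in any source used, and these shares are uncertain.

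On the TPM scale the other paralogs were minor partners. RPL26L1 made up 24.8% of its pair attached, 22.5% at day 1 and 25.95% at day 7 as means of the 4 lines, and was highest in NCI-H2228, at 40.9%, 36.7% and 39.1%. In estimated counts, however, its share in that line was 52.4%, 48.9% and 50.2%. On the TPM scale RPL7L1 made up 14.1%, 9.96% and 14.8%, RPL39L 12.4%, 6.82% and 10.8%, and RPS27L, a target of p53, 6.67%, 4.49% and 5.71%. In estimated counts the means were 29.9%, 22.4% and 30.7% for RPL7L1, 31.7%, 19.9% and 28.8% for RPL39L, and 20.4%, 14.1% and 18.0% for RPS27L. The day 1 TPM value of RPS27L was the lowest of the 3 in each line, at 2.05%, 1.33%, 7.67% and 6.92%, with RPS27 higher in each line that day. RPL3L, a protein of heart and skeletal muscle ribosomes, reached at most 0.499 TPM, and RPL10L, the testis counterpart of RPL10, at most 0.128 TPM.

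**Figure D5:**
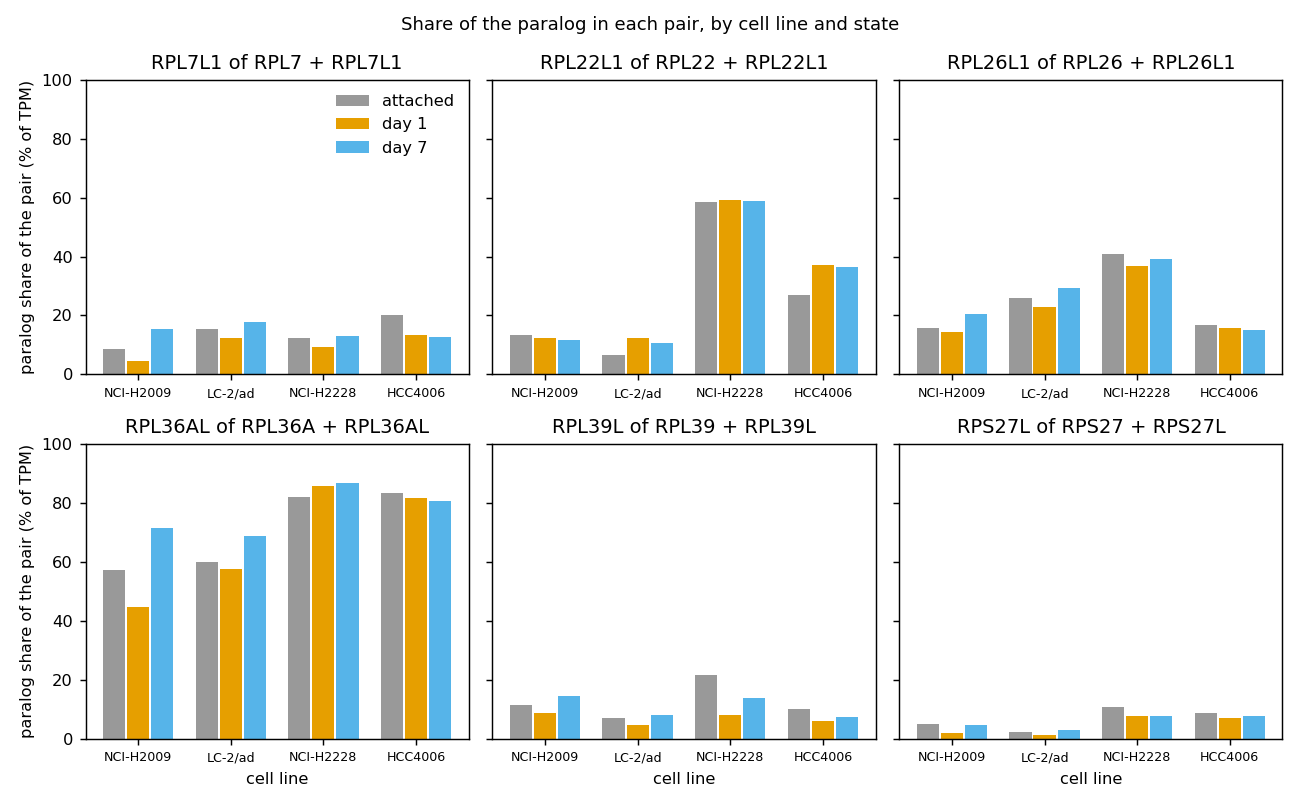
Share of the paralog in the summed TPM of its pair (y axis, percent) for each cell line (x axis), with 1 bar per state and 1 panel per pair. RPL22L1 lies between 58.3% and 59.2% in NCI-H2228 and at or below 37.3% in the other lines.

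Processed pseudogenes of ribosomal proteins are many and could draw reads from their parents. The table lists 1224 named pseudogenes for 78 of the members. Together they held 0.0999% to 0.300% of TPM per library, which is 2.08% to 2.84% of the members' own TPM.

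Other genes of protein synthesis were taken from lists of known members, and none passed edgeR's threshold in any comparison. FAU, 1 of the ribosomal proteins outside the naming rule, which is made as a fusion with a ubiquitin-like protein, stood at -0.54 ± 0.27 at day 7 and was lower in all 4 lines. Of 21 translation factors and other genes with TOP mRNAs, 20 were below 0 at day 7 (47.3% of all genes), with a median of -0.30. Their line medians were -0.83 in NCI-H2009, -0.47 in LC-2/ad, with -0.08 in NCI-H2228 and 0.06 in HCC4006, the same order as for the members. NPM1, a nucleolar chaperone of ribosome assembly, had the smallest p of them, with -0.76 ± 0.22 (SE, n = 4 lines, edgeR adjusted p = 0.166). EEF1A1, the elongation factor that brings tRNA to the ribosome, stood at -0.15 ± 0.28.

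Of the 9 snoRNA host genes with TOP transcripts, 7 were above 0 at day 1 and 2 below, with a median of 0.56. Of all genes, 49.5% were below 0. All 9 were lower at day 7 than at day 1 (48.1% of all genes were), with a median of -0.63. By line this median was -1.79 in NCI-H2009 and -0.79 in LC-2/ad, with -0.09 in NCI-H2228 and -0.10 in HCC4006. Both comparisons use the same day 1 libraries. ZFAS1 stood at 0.99 ± 0.35 and SNHG5 at 0.72 ± 0.28 at day 1, while SNHG1 stood at -1.08 ± 0.44. Reads of these hosts and of genes on their other strand could not be told apart if counting ignored strand, which is not given in the sources used here.

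Regulators of ribosomal protein synthesis, 19 in all, had a median of -0.05 at day 1 and -0.18 at day 7. MYC, a transcription factor that drives ribosome production, stood at 112, 84.5 and 39.9 TPM in NCI-H2009, at 243, 209 and 143 in LC-2/ad, with 260, 116 and 170 in NCI-H2228 and 20.9, 8.51 and 8.88 in HCC4006, attached, at day 1 and at day 7. Each line was lower at day 7, by -1.07 ± 0.30 on the log2 scale (SE, n = 4 lines, edgeR adjusted p = 0.160). MXI1, an antagonist of MYC, stood at 1.16 ± 0.30 at day 1 (SE, n = 4 lines, edgeR adjusted p = 0.095). LARP1 stood at -0.34 ± 0.16 at day 1 and -0.28 ± 0.16 at day 7.

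Genes that escort ribosomal proteins and genes of RNA polymerases I and III leaned to the low side already at day 1, when most members did not. Of 11 chaperones and import or escort factors of single ribosomal proteins, 10 were below 0, with a median of -0.48, and of 21 tested subunits and factors of RNA polymerases I and III, 18 were, with a median of -0.35, where 49.5% of all genes were below 0. The line medians of the chaperones were -1.52 in NCI-H2009 and -0.15 in LC-2/ad, with -0.39 in NCI-H2228 and -0.29 in HCC4006. Those of the polymerase list were -0.83, -0.15, -0.35 and -0.19 in the same order, so that NCI-H2009 was lowest in both. RRS1, which brings RPL5 and RPL11 into the large subunit, stood at 79.5 and 6.21 TPM in NCI-H2009, attached and at day 1, and BCCIP, a partner of RPL23, at 216 and 61.6. In LC-2/ad RRS1 stood at 25.6 and 21.2 TPM and BCCIP at 111 and 89.4. The values were 39.0 and 14.7, and 126 and 61.7, in NCI-H2228, and 23.9 and 18.1, and 108 and 89.8, in HCC4006. UBTF, which activates rRNA genes, stood at -0.83 ± 0.21 at day 1 (SE, n = 4 lines, edgeR adjusted p = 0.094) and at -0.17 ± 0.21 at day 7. At day 7 the medians of the 2 lists were -0.34 and -0.33. Of the 12 factors that survey stalled ribosomes, 9 were below 0 at day 1, MAP3K20, the ZAK kinase, having the smallest p, at -0.87 ± 0.23 (SE, n = 4 lines, edgeR adjusted p = 0.0998).

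The 78 genes of the mitochondrial ribosome, which translates the mitochondrial genome, served as a second set of ribosomal proteins. Their median was -0.10 at day 1 and -0.22 at day 7, with 70 of 78 below 0 at day 7 (47.3% of all genes). By line the day 7 medians were -0.66 in NCI-H2009, -0.21 in LC-2/ad, with 0.02 in NCI-H2228 and -0.06 in HCC4006, smaller than those of the cytosolic members in the first 2 lines. MRPL11 had the smallest p, at -0.60 ± 0.20. The difference between the 2 sets was not tested.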

How the data were processed

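RNA was measured in 12 libraries of 4 lung adenocarcinoma lines, each attached, detached for 1 day and detached for 7 days. Per the labels' protocols, RNeasy columns gave total RNA, and the SMART-Seq v4 PLUS kit, which primes on poly(A) and amplifies by PCR, gave the libraries. The submitters' processing notes name the build GRCh38. Which aligner, counter, annotation release or strand setting was used is not given in the sources used here. Per the file headers, the deposited table holds TPM and an estimated count per gene and library. The TPM that the authors deposited sum to 1000000 in each library. The estimated counts deposited by the authors are not normalized, and 31.5% of those above 0 are not whole.

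After rounding, the estimated counts entered edgeR 4.0.16 (R 4.3.3): filterByExpr by state (17395 genes left), TMM, and 1 robust quasi-likelihood model of state and cell line, with 6 residual degrees of freedom and a biological coefficient of variation of 38.7%. Benjamini-Hochberg adjustment covered all of these genes, and the threshold was 0.05. The SE is derived from the fold change and its F statistic. For a single line, log2 CPM (prior count 2) of its 2 libraries were subtracted. DESeq2 1.42.0, limma 3.58.1 on log2(TPM + 1) and log2(TPM + 0.1), other scalings, filters, members and left-out lines were alternatives. On counts simulated for day 7 against attached (17037 genes run), edgeR called 10% of genes changed 2-fold and 74% of those changed 4-fold, with 6 false calls among 16837 unchanged genes.

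The cell line pairs libraries across states: deviations from the state mean correlated at 0.715 to 0.818 between libraries of the same line. With the line as a block, p-values measure how the differences between states vary over the 4 lines, not the spread of line levels. The members and lists were chosen with earlier results of these data known, so no p is given for the group. Members are named for the smallest p (10 per detached state, 5 between the days), the 6 highest and lowest levels, the 6 widest spreads between lines, the paralog pairs, and roles known outside the ribosome; named genes of other lists are those with the smallest p or with a known role. Levels of Y-linked members and the values of some other genes are not reported here. Gene coordinates are those of the deposited table, and promoter sequences are from RefSeq.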

Additional observations from a re-analysis of the deposited data

Results flagged for a closer look

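In 10 of 165 groups of 4 libraries, 1 library stood apart from the other 3 by Dixon's criterion (its gap to the nearest library, as a part of the group's range, above the value that chance rarely passes). Chance alone gives about 1 in 20. Among attached libraries these were RPL22L1 at 98.45 TPM in NCI-H2228 (next 23.95), RPL27A at 1141 TPM in LC-2/ad (next 688) and RPS18 at 3775 TPM in LC-2/ad (next 2211). At day 1 they were RPL34 at 1174 TPM (next 776) and RPS25 at 2655 TPM (next 1257), both in LC-2/ad, where the members' summed share was the highest of the 4 lines.

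At day 7 the summed share of the members was low in NCI-H2009, at 3.77%, where the next library had 6.45%. RPS18 at 885 TPM (next 2458) and RPS3 at 529 TPM (next 1034) were low in the same library. RPL5 at 754 TPM (next 483) and RPSA at 195 TPM (next 111) were high in LC-2/ad on that day.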

How the results depend on the processing

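The number of members past the threshold was 0 in each comparison under all alternatives run. The 25 named log2 differences kept their direction and their side of the threshold in 400 of 400 recalculations over 16 alternatives, but none was past the threshold to begin with, and their sizes moved. By over 1.5 times, 15 of 25 moved without NCI-H2009, 14 without its day 7 library, 4 with limma on TPM and 1 without NCI-H2228. The members' median kept its sign in each. In estimated counts in place of TPM the summed share was 2.47%, 2.57% and 1.79% (attached, day 1, day 7) and the ratio of large to small subunit 1.496, 1.47 and 1.57. Without the most abundant member, RPS15, that ratio was 1.43, 1.35 and 1.43. Leaving out a line in turn moved the median between 0.07 and 0.19 at day 1, between -0.65 and -0.14 at day 7, and between -0.76 and -0.21 from day 1 to day 7. The lowest absolute values came without NCI-H2009, and leaving out its day 7 library was an alternative added after seeing the data. Library totals without TMM gave a day 1 median of 0.05. Without the cell line as a block the medians were 0.13, -0.46 and -0.55, and no call changed. Libraries held at least 31134420 estimated counts, and what limits the number of calls was not tested.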

Other observations

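On some chromosomes the members shared the side of a line's level, and on others they were split. Values here are log2(TPM + 1) line means relative to the member's mean over lines and the line's median member, for chromosomes with at least 4 members, a grouping chosen after the data had been seen. The 4 X-linked members RPL10, RPL36A, RPL39 and RPS4X had a median of 0.62 in HCC4006, with none of the 4 below 0. They had a median of -0.60 in NCI-H2009, with 3 of 4 below 0, and of -0.39 in NCI-H2228, with 4 of 4 below 0, and of 0.23 in LC-2/ad. All 6 members on chromosome 17 were above 0 in NCI-H2009, and 5 of 6 were below 0 in NCI-H2228, with medians of 0.23 and -0.36. On chromosome 11 all 5 members were below 0 in NCI-H2009, with a median of -0.29. In 11 of the 52 combinations of 13 chromosomes and 4 lines all members lay on 1 side. No share over all genes is given beside this count, so whether it is high cannot be said. A member's values in the 4 lines are also not independent, being taken around their mean. The 12 members on chromosome 19 were split in each line, with 7 below 0 in NCI-H2009, 5 in LC-2/ad and HCC4006 each and 8 in NCI-H2228. Copy number was not measured here, and no test was made.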
